A study of Mus musculus with 6 samples.

Results

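Messenger RNA was sequenced from primary vascular smooth muscle cells, which form the muscular layer of arteries, grown out of explants of mouse thoracic aorta. The KO group was 3 cultures from mice with LRRC8A deleted in smooth muscle, and the WT group was 3 cultures from wild-type mice. LRRC8A is the obligatory subunit of the volume-regulated anion channel. All 6 cultures were kept in DMEM with fetal bovine serum, received no treatment and were collected at passage 6 or below. Sources used here do not give the promoter that drove the deletion, nor the strain, age and sex of the mice. The genes described are 36 genes, of 12389 in all, listed by symbol as targets of the sterol regulatory element-binding proteins (SREBPs). They form a sterol arm of 22 genes and a fatty acid arm of 14 genes. Whether SREBPs act on each of them in these cells was not tested. The list was chosen with earlier results of these data known, so its shares beside those of all genes are descriptions and not independent evidence. All 36 were present and all 36 passed the filter on low values.

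SREBPs are transcription factors made as precursors in the membrane of the endoplasmic reticulum. When membrane sterol is low, the escort protein SCAP carries them to the Golgi, where proteases release the active part. When sterol is ample, INSIG proteins hold SCAP and the precursor back. SREBP-2, encoded by Srebf2, acts mainly on genes of cholesterol synthesis, and SREBP-1, encoded by Srebf1, mainly on genes of fatty acid synthesis. Cultured cells draw sterol from the lipoproteins of serum and also make it.

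Values are scaled reads, the estimated reads of a gene divided by a factor for each library, as deposited. A log2 fold change is the difference of log2(scaled reads + 2), KO minus WT, from limma, with its standard error (SE), and it understates the difference of low genes. The targeted gene Lrrc8a had 868, 672.5 and 506 scaled reads in KO replicates 1 to 3, against 2578, 2194 and 1221 in WT replicates 1 to 3, with KO libraries all below WT libraries and a log2 fold change of -1.51 (SE 0.34). Groups were taken from the sample titles, since the field for genotype says wild type in each of the 6. Estimated depth was 31.0 to 48.0 M reads per library. KO replicate 2 stood apart in sex-linked genes, with 21672 scaled reads of Xist, the RNA that silences an X chromosome, and 1.16 of the Y-linked Ddx3y. The other 5 libraries had at most 7.11 of Xist and at least 1339 of Ddx3y. WT replicate 3 stood highest in most contractile genes, with 130984 scaled reads of the smooth muscle actin Acta2, against 10651 to 59317 in the other 5 libraries. KO replicate 3 came next for Acta2, at 59317, and for Tagln, at 40463 against 58393 in WT replicate 3. Smtn did not follow, with 2911 in WT replicate 3 and 3049 in WT replicate 1. Of 10 smooth muscle markers 9 were analysed, and 2 of these, Acta2 at 0.14 (SE 1.02) and Tagln at 0.56 (SE 1.23), had a log2 fold change above 0. The lowest was that of the myosin heavy chain Myh11, chosen after its values were seen, which had 20.8 to 96.8 scaled reads in KO libraries and 90.1 to 1656 in WT libraries. The fibroblast markers, 6 of 6 analysed with 2 above 0, included Dcn and Col14a1, which varied widely between libraries. Dcn had 1362 to 26351 scaled reads in KO libraries and 8734 to 12661 in WT libraries. Col14a1 had 1994 to 28445 in KO libraries and 108 to 34255 in WT libraries.

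The sterol arm lay above 0 in KO cultures for most of its members, without any gene passing the test. Of 22 genes, 20 had a log2 fold change above 0, where 50.4% of the 12363 genes tested did. As the members were chosen with earlier results known, this contrast is a description and was not tested. The median was 0.61 in the sterol arm and 0.0040 over all genes tested. The fatty acid arm had 9 of 14 genes above 0 and a median of 0.24. limma with Benjamini-Hochberg adjustment over all genes called 0 members at an adjusted p under 0.05, as it called 0% of all genes, and the smallest adjusted p among the members was 0.996. Over all genes 447 had an unadjusted limma p under 0.05, and the authors' deposited table has 65 at a false discovery rate under 0.05. At an unadjusted limma p under 0.05, 2 sterol genes and 1 fatty acid gene were higher in KO, where 1.46% of all genes were. In the other direction the count was 0 sterol genes and 1 fatty acid gene, where 2.15% of all genes were lower in KO.

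Deviations of same-numbered KO and WT libraries from their group means correlated over genes at 0.43, 0.15 and 0.39 for numbers 1 to 3. The correlation was weak for number 2. Each KO library was also set against the WT library of the same number. No label gives this pairing, which was taken from the same data as the counts below. With the replicate number as a block in limma, 11 sterol genes and 5 fatty acid genes were higher in KO at an unadjusted p under 0.05, where 3.17% of all genes were. In that blocked fit 1 gene of each arm was lower, Ggps1 and Fads6, where 4.25% of all genes were. The block again called 0% of all genes at an adjusted p under 0.05, and the smallest adjusted p among the members was 0.373. KO lay above WT in all 3 pairs for 12 of 22 sterol genes and 8 of 14 fatty acid genes, where 15.7% of all genes did. KO lay below WT in all 3 pairs for 1 gene of each arm, where 15% of all genes did.

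**Figure D1:**
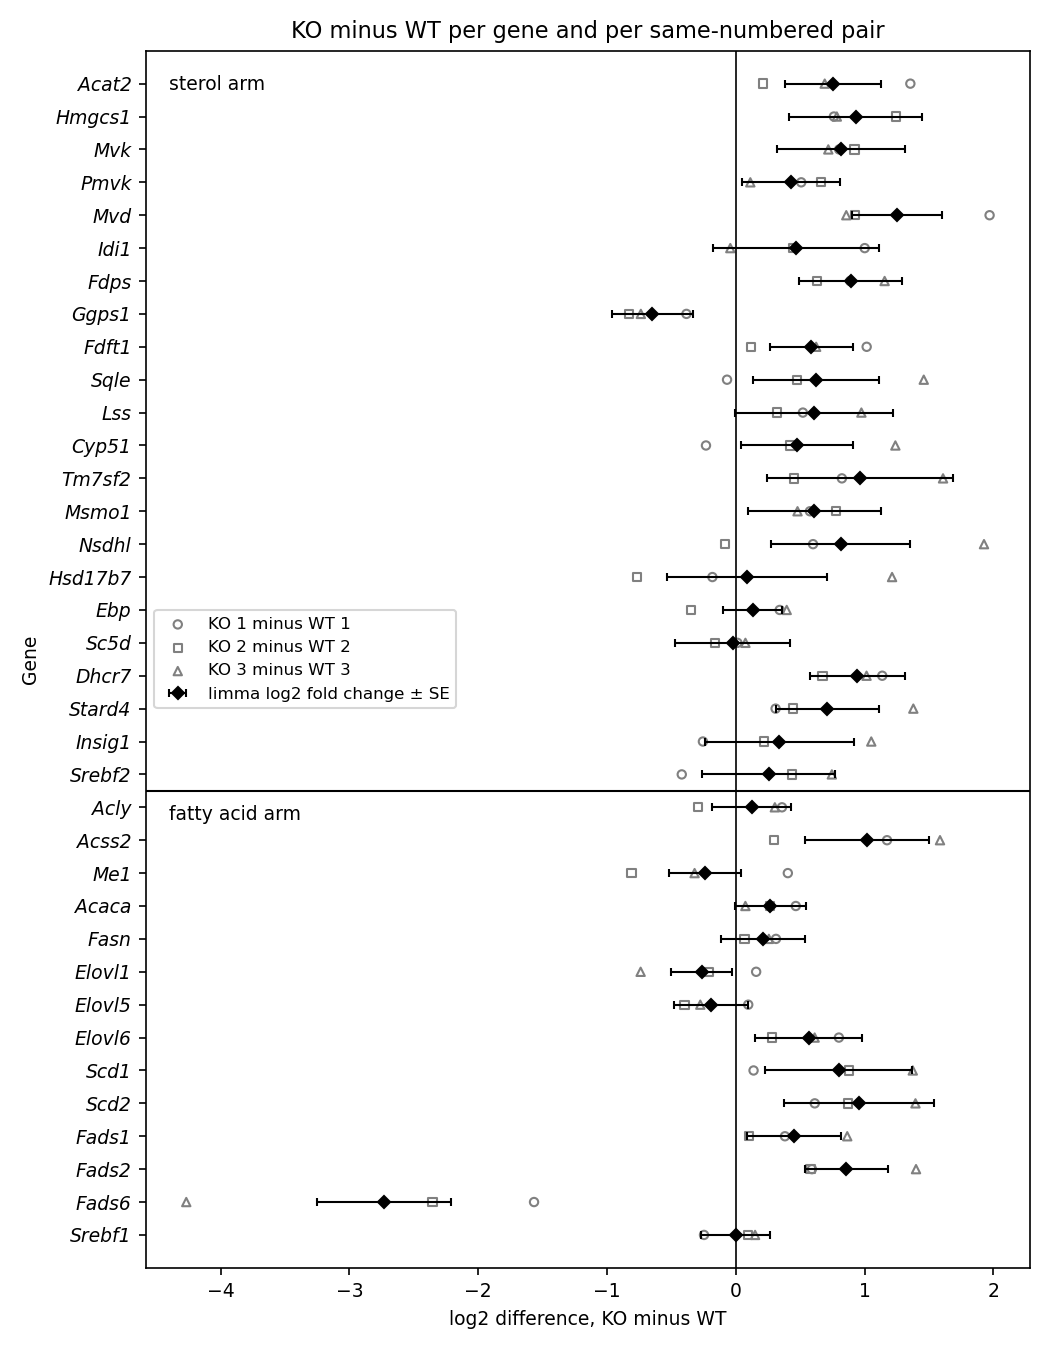
Log2 difference, KO minus WT, for the 36 genes in pathway order within each arm. Diamonds are limma log2 fold changes with their SE, and open circles, squares and triangles are the differences between libraries of replicate number 1, 2 and 3. Most sterol genes lie right of 0, Ggps1 lies left of it in all 3 pairs, and Fads6 lies farthest left at -2.73.

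The largest log2 fold change of the sterol arm was that of Mvd, mevalonate diphosphate decarboxylase, which makes isopentenyl diphosphate. Mvd (GRCm38 chromosome 8, 122433601 to 122443422, minus strand) had 4433, 1931 and 1831 scaled reads in KO replicates 1 to 3, against 1130, 1014 and 1009 in WT replicates 1 to 3. The KO libraries all lay above the WT libraries, and the WT values lay close together while KO replicate 1 stood far above the other KO libraries. Means were 2732 ± 1474 in KO and 1051 ± 68.1 in WT (SD, n = 3 each). The log2 fold change was 1.25 (SE 0.35), with an unadjusted limma p of 0.00890 and an adjusted p of 0.999. In the authors' deposited table the log2 ratio of Mvd was 1.38, with a false discovery rate of 0.104. At an unadjusted p under 0.05 that authors' deposited table has 4 sterol genes and 1 fatty acid gene higher in KO, where 2.01% of all genes were, and 0 sterol genes and 1 fatty acid gene lower, where 3.29% were.

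The other 4 genes that carry acetyl-CoA to isopentenyl diphosphate also had KO above WT in all 3 pairs. Hmgcs1, the cytosolic synthase that makes hydroxymethylglutaryl-CoA (chromosome 13, 119690379 to 119708260, plus strand), had 17803, 10460 and 6211 scaled reads in KO replicates 1 to 3, against 10501, 4416 and 3605 in WT replicates 1 to 3. Its groups overlapped, with WT replicate 1 just above KO replicate 2 and above KO replicate 3, and its pair differences of 0.76, 1.24 and 0.78 were alike in sign. Acat2, the cytosolic thiolase of the first step, had 8186, 2944 and 4112 in KO, against 3199, 2541 and 2548 in WT. Mevalonate kinase, Mvk, had 3558, 1309 and 1847 in KO, against 2039, 689.8 and 1122 in WT. Phosphomevalonate kinase, Pmvk, had the smallest pair difference of these genes, 0.11 in replicate 3, with 490 in KO and 453 in WT. The 5 genes had log2 fold changes from 0.43 for Pmvk (SE 0.38) to that of Mvd, with a median of 0.81.

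The stretches before the annotated starts of Hmgcs1, Mvk, Mvd, the prenyl diphosphate synthase gene Ggps1 and the fatty acid synthase gene Fasn are shown because promoters of this pathway carry motifs for SREBP and its partners NF-Y and Sp1. RefSeq promoters (GRCm38.p6) were at hand for 29 of the 36 genes, and 180 bases are given 5′ to 3′ on the gene's strand, ending at the base before the RefSeq start. Capitals mark CCAAT, the NF-Y box (ATTGG on the other strand), GGGCGG, the Sp1 box (CCGCCC on the other strand), and CACNCCAC, a core of the sterol regulatory element.
Hmgcs1, chr13:119690171-119690350, plus strand: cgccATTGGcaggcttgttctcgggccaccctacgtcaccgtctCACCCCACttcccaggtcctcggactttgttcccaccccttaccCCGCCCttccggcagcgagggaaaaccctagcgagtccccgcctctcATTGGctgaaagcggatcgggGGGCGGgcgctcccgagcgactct
Mvk, chr5:114444089-114444268, plus strand: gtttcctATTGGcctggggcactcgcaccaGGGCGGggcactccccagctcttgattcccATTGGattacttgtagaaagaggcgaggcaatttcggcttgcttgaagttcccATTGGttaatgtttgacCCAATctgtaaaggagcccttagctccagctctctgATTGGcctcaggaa
Mvd, chr8:122443423-122443602, minus strand: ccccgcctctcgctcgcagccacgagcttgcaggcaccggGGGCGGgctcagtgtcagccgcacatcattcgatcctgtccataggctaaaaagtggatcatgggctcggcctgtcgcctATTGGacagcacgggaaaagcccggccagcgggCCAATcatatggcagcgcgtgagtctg
Ggps1, chr13:14063489-14063668, minus strand: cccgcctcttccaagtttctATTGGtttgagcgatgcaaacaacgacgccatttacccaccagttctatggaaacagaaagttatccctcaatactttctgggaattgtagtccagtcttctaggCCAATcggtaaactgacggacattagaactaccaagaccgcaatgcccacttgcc
Fasn, chr11:120824548-120824727, minus strand: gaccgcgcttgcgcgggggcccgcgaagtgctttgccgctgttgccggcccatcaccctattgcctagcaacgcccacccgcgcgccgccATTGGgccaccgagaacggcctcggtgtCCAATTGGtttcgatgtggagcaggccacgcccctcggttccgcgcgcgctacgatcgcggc

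Both CCAAT and GGGCGG were common before the sterol genes. Over the 250 bases before each start, on both strands and at any RefSeq start of the gene, CCAAT was found for 17 of 18 sterol genes, or 94.4%, and 6 of 11 fatty acid genes, or 54.5%. The share was 41.3% of the 9043 tested genes with a RefSeq promoter. GGGCGG was found for 16 of 18 sterol genes and 7 of 11 fatty acid genes, against 66.3% of those tested genes. CACNCCAC was found for 3 of 18 sterol genes (Hmgcs1, Acat2 and Insig1) and 0 of 11 fatty acid genes, against 6.55%. The E-box TCACGTGA was found before 0 of the 29 genes, against 1.91%. In the windows shown, CCAAT boxes number 5 before Mvk, 3 before Fasn, where a pair overlap on opposite strands, and 2 each before Hmgcs1, Mvd and Ggps1. These are matches of letters in a window, and the motifs were chosen as known for the pathway.

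Downstream of isopentenyl diphosphate the genes parted. Idi1, the isomerase that makes dimethylallyl diphosphate, had 12564, 5045 and 2372 scaled reads in KO replicates 1 to 3, against 6277, 3708 and 2443 in WT replicates 1 to 3. Its pair differences were 1.0, 0.44 and -0.04 in replicates 1 to 3, and without KO replicate 1 its log2 fold change was -0.15 in place of 0.47 (SE 0.64). Farnesyl diphosphate synthase, Fdps, had 6291, 2663 and 3856 in KO, against 3398, 1721 and 1730 in WT, with a log2 fold change of 0.89 (SE 0.40) and KO above WT in all 3 pairs. Of the exons of Fdps, 26.7% are shared with Gm43738 on the same strand, so the counting may have split its reads.

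Ggps1, geranylgeranyl diphosphate synthase, was the 1 sterol gene with KO below WT in every pair. It uses farnesyl diphosphate to make geranylgeranyl diphosphate, a lipid precursor. Ggps1 (chromosome 13, 14050659 to 14063488, minus strand) had 1569, 1545 and 908 scaled reads in KO replicates 1 to 3, against 2047, 2748 and 1515 in WT replicates 1 to 3. The groups overlapped narrowly, with WT replicate 3 below KO replicates 1 and 2. The log2 fold change was -0.65 (SE 0.31), with an unadjusted limma p of 0.0766 without the block and 0.0123 with it, and an adjusted p of 0.999 and 0.529.

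Squalene synthase, Fdft1, takes farnesyl diphosphate towards sterol in place of geranylgeranyl diphosphate. Fdft1 had 6695, 4222 and 3447 scaled reads in KO replicates 1 to 3, against 3309, 3887 and 2236 in WT replicates 1 to 3. Per kb of exon, Fdft1 was 4.77, 3.05 and 4.24 times Ggps1 in KO replicates 1 to 3, against 1.81, 1.58 and 1.65 times in WT replicates 1 to 3. The ratio within a library does not depend on how libraries were scaled, and the KO ratios all lay above the WT ratios. This ratio was chosen after its values were seen and was not tested. Of the exons of Fdft1, 18.3% lie opposite Ctsb, a cathepsin gene with 28576 to 66417 scaled reads in KO and 45022 to 65413 in WT. Sources used here do not say whether the counting used strand, so the level of Fdft1 is uncertain to that extent.

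The next enzymes differed in whether KO was above WT in each pair. Squalene epoxidase, Sqle, had 12762, 9113 and 9033 scaled reads in KO replicates 1 to 3, against 13378, 6559 and 3284 in WT replicates 1 to 3. WT replicate 1 was the highest of all 6 and WT replicate 3 the lowest. Lanosterol synthase, Lss, had 8050, 3134 and 2717 in KO, against 5611, 2507 and 1381 in WT, with KO above WT in each pair. The log2 fold changes were 0.59 (SE 0.32) for Fdft1, 0.62 (SE 0.49) for Sqle and 0.61 (SE 0.61) for Lss.

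Among the 8 genes that turn lanosterol into cholesterol, 7 were above 0, with a median of 0.54. Dhcr7, which carries out the last reduction to cholesterol (chromosome 7, 143823145 to 143848410, plus strand), had 2309, 1104 and 1144 scaled reads in KO replicates 1 to 3, against 1049, 691 and 565 in WT replicates 1 to 3. The KO libraries lay above the WT libraries, closely so at 1104 against 1049. Its log2 fold change was 0.94 (SE 0.37), with an unadjusted limma p of 0.0369. Dhcr7 and Mvd were the 2 sterol genes whose groups did not overlap with KO above, where 3.91% of all genes tested did so, and 3 against 3 libraries allow no exact two-sided permutation p below 0.1.

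The other 7 genes of that stage overlapped between the groups. The demethylase gene Cyp51 had 10402, 8536 and 8251 in KO, against 12213, 6364 and 3495 in WT. The sterol oxidase Msmo1 had 14332, 9965 and 4750 in KO, against 9617, 5821 and 3407 in WT. In Cyp51 pair 1 ran the other way from pairs 2 and 3, and in Msmo1 KO was above WT in each pair. Nsdhl, an X-linked dehydrogenase that works with Msmo1, had 3592, 1215 and 2960 in KO, against 2370, 1287 and 777 in WT. Tm7sf2, a sterol reductase, had 1672, 448 and 574 in KO, against 944, 327 and 187 in WT, and 12.1% of its exons are shared with Vps51 on the same strand. Near 0 lay the reductase Hsd17b7 at 0.09 (SE 0.62), the isomerase Ebp at 0.13 (SE 0.23) and the desaturase Sc5d at -0.03 (SE 0.44). Hsd17b7 and Sc5d turned sign without single libraries in 4 of 6 cases each, and Ebp in 1.

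Among genes that govern or move sterol, Srebf2 and Insig1 lay above 0 by less than their SE and Stard4 by more. Stard4, a cytosolic carrier of cholesterol, had 5393, 3260 and 3952 scaled reads in KO replicates 1 to 3, against 4353, 2394 and 1519 in WT replicates 1 to 3, and a log2 fold change of 0.71 (SE 0.40). Srebf2 had 11851, 8854 and 6552 in KO, against 15852, 6543 and 3906 in WT, with a log2 fold change of 0.25 (SE 0.52). Insig1, both a target and a brake of the pathway, had 15917, 10535 and 8156 in KO, against 18999, 9039 and 3933 in WT, at 0.34 (SE 0.57). For both genes WT replicate 1 was the highest library and WT replicate 3 the lowest. Without WT replicate 3 the log2 fold changes were -0.21 for Srebf2 and -0.24 for Insig1. Srebf1 had 5764, 4754 and 4221 in KO, against 6840, 4458 and 3804 in WT, at -0.0014 (SE 0.27).

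**Figure D2:**
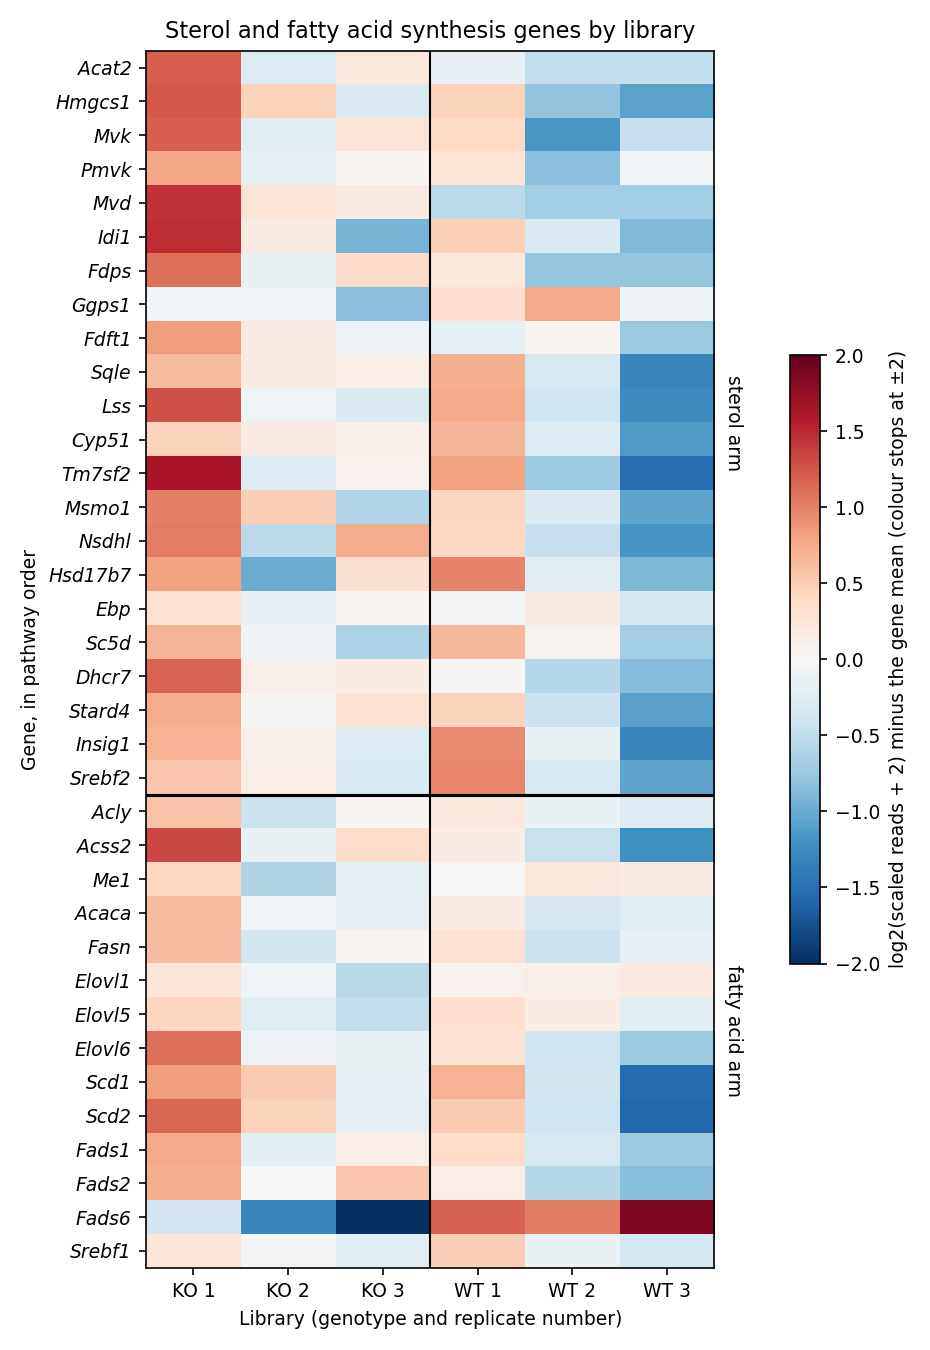
Log2(scaled reads + 2) of each gene in each library minus the gene's mean over the 6 libraries, with KO libraries on the left and WT libraries on the right. Rows are genes in pathway order, the sterol arm above the line and the fatty acid arm below. KO replicate 1 is the highest KO library for 22 of 22 sterol genes, and WT replicate 3 is the lowest WT library for 18 of 22.

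Of the 5 desaturases in the fatty acid arm, 4 had a log2 fold change above 0, and the median of the 5 was 0.80. Fads2, the delta-6 desaturase of polyunsaturated fatty acid synthesis (chromosome 19, 10062765 to 10101746, minus strand), had 11597, 7066 and 10286 scaled reads in KO replicates 1 to 3, against 7699, 4722 and 3898 in WT replicates 1 to 3. The groups overlapped through KO replicate 2, which lay below WT replicate 1. Its log2 fold change was 0.86 (SE 0.32), with an unadjusted limma p of 0.0314 and an adjusted p of 0.999. Its neighbour Fads1, the delta-5 desaturase, had 15624, 7964 and 10165 in KO, against 11992, 7407 and 5579 in WT, at 0.45 (SE 0.37). Per kb of exon, Fads2 was 1.08, 1.30 and 1.48 times Fads1 in KO, against 0.938, 0.931 and 1.02 times in WT, a ratio chosen after its values were seen.

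The stearoyl-CoA desaturases make monounsaturated fatty acids. Scd2 had 124783, 78140 and 50107 scaled reads in KO replicates 1 to 3, against 81589, 42702 and 19053 in WT replicates 1 to 3. Scd1 had 20994, 16853 and 10493 in KO, against 19080, 9152 and 4047 in WT. Both had KO above WT in every pair and groups that overlapped, with WT replicate 1 above KO replicates 2 and 3. Their log2 fold changes were 0.96 (SE 0.58) and 0.80 (SE 0.57). Per kb of exon Scd2 was 5.32, 4.15 and 4.28 times Scd1 in KO, against 3.83, 4.18 and 4.21 times in WT, so this ratio overlapped between the groups.

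Fads6 was the 1 desaturase with a log2 fold change below 0. It is placed with the fatty acid desaturases by sequence. Fads6 (chromosome 11, 115279622 to 115297663, minus strand) had 308, 159 and 74.7 scaled reads in KO replicates 1 to 3, against 916, 824 and 1475 in WT replicates 1 to 3. Every KO library was below every WT library, and Fads6 was the 1 gene of the 36 whose groups did not overlap in that direction, where 4.51% of all genes tested did so. Means were 181 ± 118 in KO and 1072 ± 352 in WT (SD, n = 3 each), with a log2 fold change of -2.73 (SE 0.52). The unadjusted limma p was 0.00114, and the adjusted limma p was 0.996 without the replicate block and 0.406 with it. In the authors' deposited table the log2 ratio of Fads6 was -2.57, with a false discovery rate of 0.00214, the 1 member below 0.05, where 0.525% of all genes were.

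**Figure D3:**
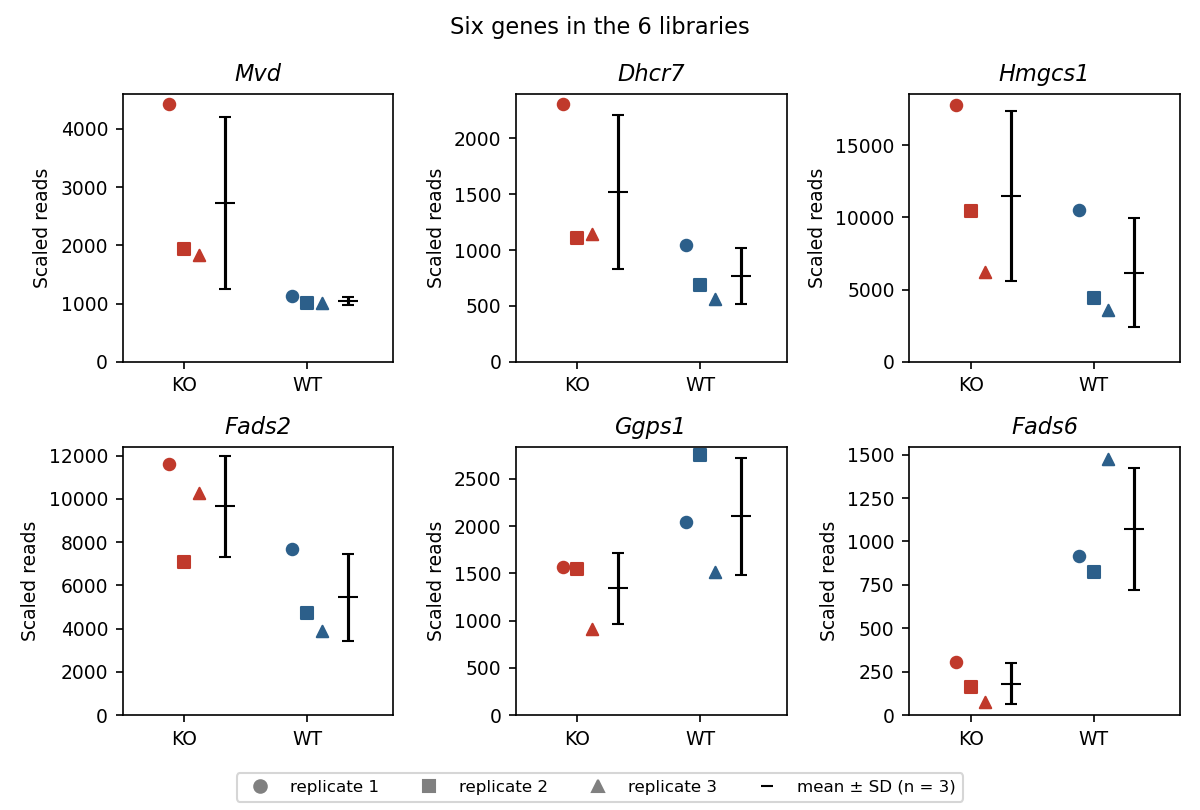
Scaled reads of Mvd, Dhcr7, Hmgcs1, Fads2, Ggps1 and Fads6 in each library, KO left of WT. Marker shapes give the replicate number and the bars are mean ± SD of 3 libraries. The groups are apart for Mvd, Dhcr7 and Fads6 and overlap for Hmgcs1, Fads2 and Ggps1.

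The enzymes that supply and build the fatty acid chain differed little between the groups. Fatty acid synthase, Fasn, had 24087, 12218 and 16343 scaled reads in KO replicates 1 to 3, against 19403, 11650 and 13679 in WT replicates 1 to 3, at 0.21 (SE 0.33). Acetyl-CoA carboxylase, Acaca, had 4589, 2823 and 2621 in KO, against 3322, 2345 and 2489 in WT, at 0.27 (SE 0.27). For both genes KO was slightly above WT in all 3 pairs, and for Fasn the sign turned without KO replicate 1, at -0.04. ATP citrate lyase, Acly, which makes cytosolic acetyl-CoA from citrate, stood at 0.12 (SE 0.31). Malic enzyme, Me1, a source of NADPH, stood at -0.24 (SE 0.28).

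Acss2, which makes acetyl-CoA from acetate, was the exception among the supply genes. It had 1228, 439 and 628 scaled reads in KO replicates 1 to 3, against 543, 357 and 208 in WT replicates 1 to 3. KO was above WT in every pair, and the groups overlapped through WT replicate 1. The log2 fold change of 1.02 (SE 0.48) was the highest of the fatty acid arm, at an unadjusted limma p of 0.0724. The elongases did not share a direction. Elovl6, which lengthens saturated chains, had 4624, 1990 and 1980 in KO, against 2654, 1635 and 1295 in WT, at 0.57 (SE 0.41). Elovl1 and Elovl5 stood at -0.26 (SE 0.24) and -0.19 (SE 0.29).

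Levels per kb of exon spanned a wide range. The length used joins all annotated exons of a gene, so the order of genes depends on that choice. Scd2 was the highest gene of the 36, at 15436 scaled reads per kb in KO and 8745 in WT. Insig1 led the sterol arm at 3730 per kb in KO and 3445 in WT. At the low end Acss2 had 75.3 per kb in KO and 36.3 in WT, and Fads6 had 27.2 in KO and 161 in WT. Of the genes named for their differences, Mvd had 1469 per kb in KO and 565 in WT, and Dhcr7 261 in KO and 132 in WT.

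**Figure D4:**
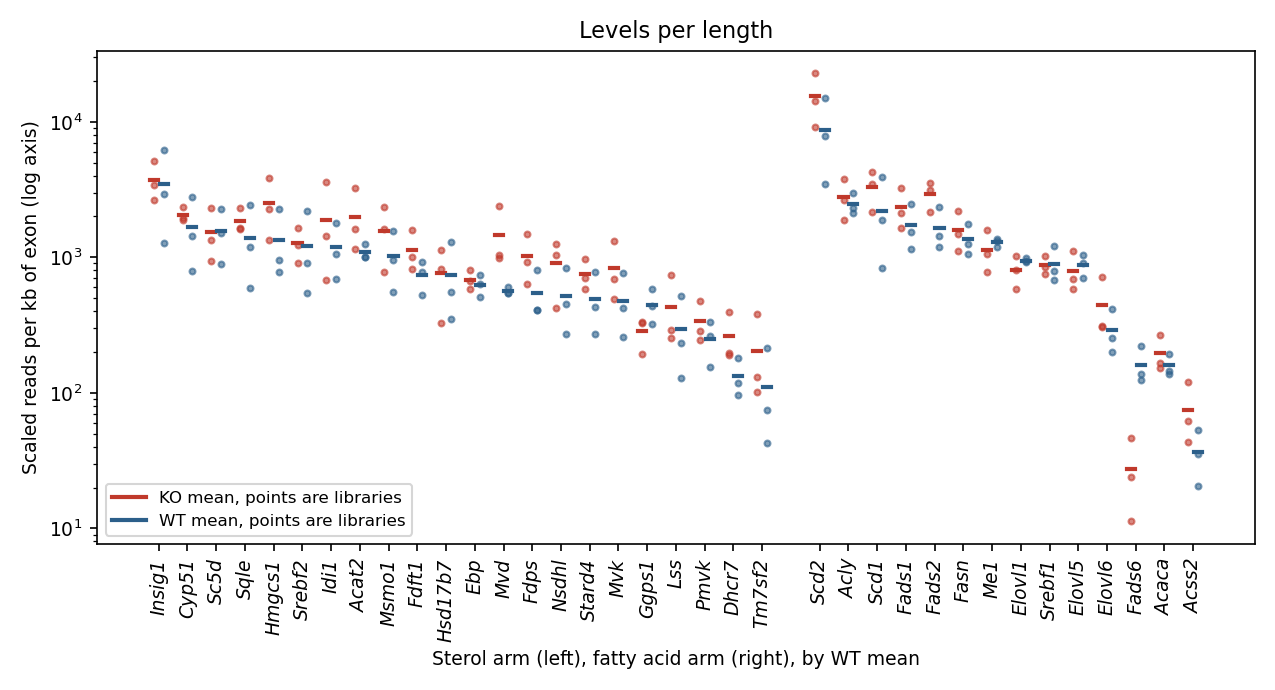
Scaled reads per kb of exon, on a log axis, for the sterol arm on the left and the fatty acid arm on the right, each sorted by its WT mean. Points are libraries and short lines are group means, KO left of WT for each gene. Scd2 stands highest at 15436 in KO and 8745 in WT, and Fads6 is the gene with the clearest gap between KO and WT points.

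In both groups the level of the sterol arm differed between libraries of different number. With each gene's mean over the 6 libraries set to 0, the median of the 22 sterol genes was 0.92, -0.03 and 0.06 on the log2 scale in KO replicates 1 to 3, against 0.44, -0.36 and -0.89 in WT replicates 1 to 3. KO was above WT in each pair, and KO replicates 2 and 3 were below WT replicate 1. The 14 fatty acid genes had medians of 0.63, -0.14 and -0.17 in KO, against 0.30, -0.33 and -0.31 in WT. KO replicate 1 was the highest KO library for all 22 sterol and all 14 fatty acid genes. WT replicate 1 was the highest WT library for 19 of 22 sterol genes and 11 of 14 fatty acid genes.

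Other measures also differed between libraries of different number, and their part in the arms' values was not tested. Mitochondrial transcripts made up 6.41%, 4.24% and 2.37% of the values in KO replicates 1 to 3, against 7.13%, 4.95% and 1.82% in WT replicates 1 to 3. The summed level of 10 proliferation markers was 7312, 23233 and 44032 scaled reads in KO, against 7616, 12753 and 28889 in WT, and 9 of the 10 had a log2 fold change above 0. That of 9 smooth muscle markers was 89398, 94716 and 213620 in KO, against 86913, 95438 and 415915 in WT. In both groups the library highest in sterol genes was the lowest in proliferation markers. Of 12 adipocyte markers 2 were analysed, Fabp4 and Pparg, with a summed level of 274 to 434 in KO and 142 to 1622 in WT. Of 6 leukocyte markers 4 were analysed, with 834 to 1676 in KO and 1995 to 2616 in WT, and of 6 endothelial markers 2, with 116 to 463 in KO and 94.9 to 461 in WT. Fewer cells of a type and less RNA per cell cannot be told apart in such bulk samples. Without KO replicate 2, the library apart in sex-linked genes, the sterol median was 0.67 with 21 of 22 genes above 0, and the fatty acid median 0.41 with 10 of 14. Without WT replicate 3, the library highest in most contractile genes, the sterol median was 0.29 with 16 of 22 above 0. The fatty acid median was then 0.18 with 9 of 14. Without KO replicate 1 the sterol median was 0.33 with 18 of 22, and the fatty acid median -0.01 with 7 of 14.

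**Figure D5:**
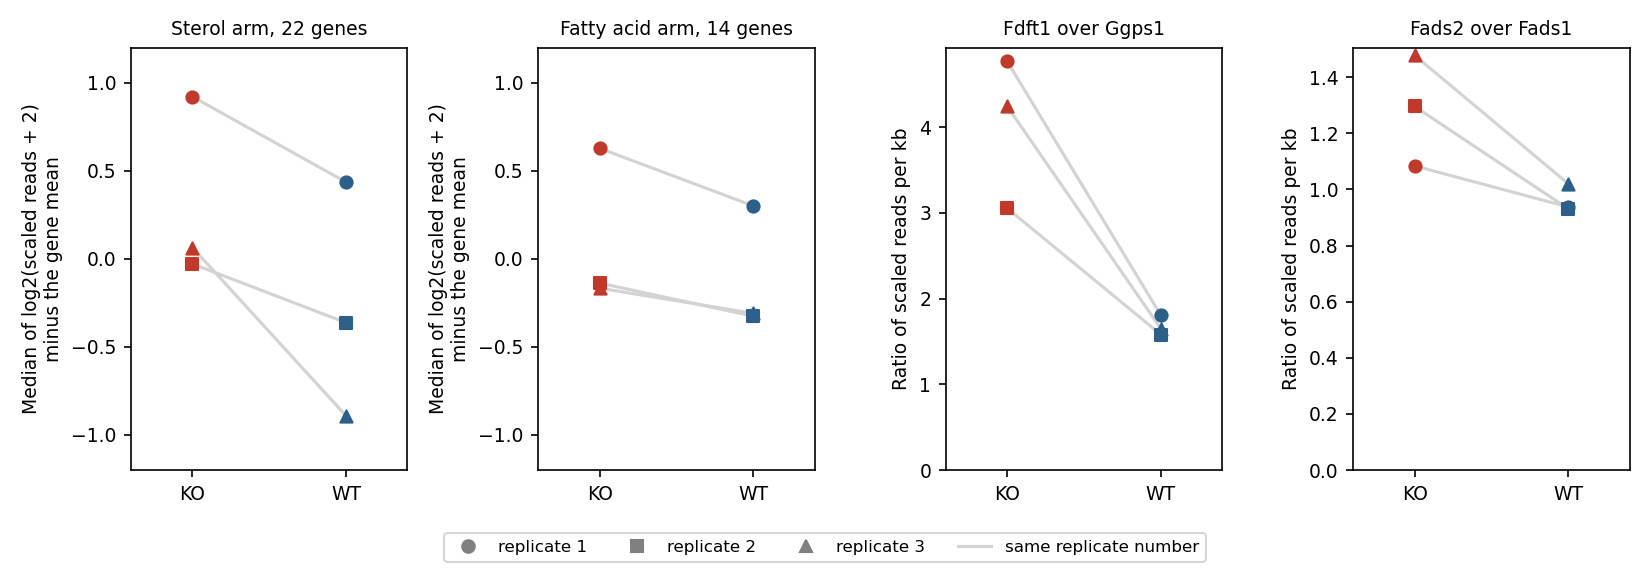
The first 2 panels give the median over the genes of each arm of log2(scaled reads + 2) minus the gene's mean, per library. The other 2 panels give the ratios of Fdft1 over Ggps1 and of Fads2 over Fads1 in scaled reads per kb of exon. Grey lines join libraries of the same replicate number, KO left of WT, and each slopes down from KO to WT.

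Genes that control SREBP and genes of sterol efflux gave no common direction. Of 11 tested genes that process or restrain SREBP, 6 were above 0, with a median of 0.01, and 0 had an unadjusted limma p under 0.05. The lowest p in that list belonged to the retention protein Insig2 at -0.57 (SE 0.40), the escort Scap at -0.30 (SE 0.24) and the ubiquitin ligase subunit Fbxw7 at 0.20 (SE 0.21). Of 8 genes of the liver X receptors and sterol efflux, 3 were above 0, with a median of -0.11. Nr1h3, which encodes the oxysterol receptor LXR alpha, had 93.1, 126 and 34.2 scaled reads in KO replicates 1 to 3, against 357, 301 and 291 in WT replicates 1 to 3. The KO libraries lay below the WT libraries, as in 4.51% of all genes tested. The log2 fold change was -2.06 (SE 0.55) at an unadjusted limma p of 0.00664 and an adjusted p of 0.999. Apoe, an apolipoprotein, stood at -0.88 (SE 1.04) and the receptor partner Rxra at -0.17 (SE 0.21).

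Uptake and storage genes were mixed too, with 6 of 13 above 0 and a median of -0.11. Nceh1, a cholesterol ester hydrolase, stood at -0.81 (SE 0.30), the lipoprotein receptor Vldlr at 1.35 (SE 0.56) and the sterol 27-hydroxylase Cyp27a1 at -1.06 (SE 0.50). Nceh1 and Vldlr had unadjusted limma p of 0.0295 and 0.0470. Of 14 genes that use isoprenoids, 7 were above 0, with a median of 0.0042. KO lay below WT in all 3 pairs for 5 of the 14, where 15% of all genes did, and above in 0. Nus1, a subunit of the enzyme that makes dolichol precursors, stood at -0.44 (SE 0.19). The 2 processing enzymes of prenylated proteins Icmt and Zmpste24 stood at -0.45 (SE 0.22) and -0.37 (SE 0.19). In all 3 the KO libraries lay below the WT libraries, as in 4.51% of all genes tested. With the replicate block the unadjusted limma p of Nus1 was 0.0460 and that of Icmt 0.0466, against 0.0542 and 0.0826 without it.

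Most glycerolipid genes lay below 0. Of 20 such genes 5 were above 0 and 15 below, with a median of -0.16, where 50.4% of all genes tested were above 0. KO lay below WT in all 3 pairs for 6 of the 20, where 15% of all genes did. For 1 it lay above in all 3, where 15.7% did. Gpam, the mitochondrial acyltransferase that starts glycerolipid synthesis, had 5585, 3912 and 3324 scaled reads in KO replicates 1 to 3, against 2914, 1678 and 2081 in WT replicates 1 to 3. The KO libraries lay above the WT libraries, as in 3.91% of all genes tested, at 0.94 (SE 0.29) and an unadjusted limma p of 0.0132. Plin2, a coat protein of lipid droplets, went the other way at -0.58 (SE 0.24), as did the acyltransferase Agpat4 at -0.36 (SE 0.18). For both, the KO libraries lay below the WT libraries, as in 4.51% of all genes tested. None of these genes passed limma over all genes tested, where the adjusted p of each was above 0.99.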

How the data were processed

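Gene expression was measured by RNA sequencing in 6 cultures, 3 KO and 3 WT, grouped by sample title. The submitters' processing notes list, for what the authors ran, DESeq2, Partek and STAR, and as builds mm39 and GRCm39, with neither roles nor versions. The deposited per-library values, called signal here, are read counts the authors divided by a factor for each library: values are fractional, and 83.0% to 92.8% of low values were whole reads within 0.05 of a read once divided by the library's step. The authors' deposited table gives a log2 ratio, a p-value and a step-up false discovery rate per gene, per the file headers. Of 12385 of its genes with an ID in GENCODE M21 (GRCm38), 12341 start at the same base, so coordinates and exon lengths are from that annotation.

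Because the values are not raw counts, limma (version 3.58.1, R 4.3.3) was run on log2(value + 2) with trend and robust priors, in place of a count test. The test took in each gene that reached 10 in 3 or more libraries, which left out 26 of 12389. p-values were two-sided and Benjamini-Hochberg adjusted over 12363 genes. The procedure was tested on simulated data. The submitters call the cultures independent biological replicates. The correlation over genes of the deviations of same-numbered KO and WT libraries from their group means was 0.43, 0.15 and 0.39 for numbers 1, 2 and 3, so the numbers were treated as pairs in a blocked fit. No label says what a number marks, so this pairing comes from the data.

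Alternatives covered library scaling, the filter, the pseudocount, the second deposited table, limma-voom, the replicate block, weights for library quality, and the removal of each library in turn. The genes and lists were chosen with earlier results of these data known. The rule for named genes took Lrrc8a, all 36 members, the 3 tested genes with the smallest unadjusted p from each further list, and the 2 highest genes of marker lists. Myh11, the sex-linked genes, Ctsb and the ratios were chosen outside it.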

Additional observations from a re-analysis of the deposited data

How the results depend on the processing

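With 3 libraries a group and a few libraries far from the rest, these data limit what can be called. The median of the sterol arm stayed above 0 under every alternative run. Leaving out 1 library at a time, it ran from 0.29 to 0.96, with 16 to 21 genes above 0 and 1 to 9 at an unadjusted p under 0.05. The fatty acid median ran from -0.013 to 0.42, with 7 to 10 genes above 0 and 0 to 4 at that p. It was below 0 without KO replicate 1. The number of genes called over the whole table ran from 0 to 1, the 1 call arising without KO replicate 1. The count of genes above in all 3 pairs has no value with a library left out, since it needs every pair.

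With library quality weights, whose estimation stopped before its tolerance was reached, limma called 30 genes. At an unadjusted limma p under 0.05, 8 sterol and 3 fatty acid genes were then higher in KO. The weights were 0.95, 1.97 and 0.36 for KO replicates 1 to 3, against 0.49, 7.99 and 0.38 for WT replicates 1 to 3. The weighted WT level thus leaned mainly on WT replicate 2, which limits these counts. With these weights Lrrc8a stood at -1.62 with an adjusted limma p of 0.0450. With the replicate block those member counts were 11 and 5 and 0 genes were called, and with the block and weights together they were 11 and 5 and 5 genes were called. The counts at an unadjusted p were added after the values were seen. At an unadjusted p under 0.05 the block also took in Ggps1 (p 0.0123), Nus1 (p 0.0460), Icmt (p 0.0466), Cyp27a1 (p 0.0143), Fabp4 (p 0.0281) and Myh11 (p 0.00803) as lower in KO and the proliferation marker Rrm2 (p 0.00205) as higher, and left out Plin2 (p 0.0628). At an adjusted p it changed no call.

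Several genes turned sign. Sc5d stood at 0.0056 with total scaling, 0.0031 with quantile normalization, 0.0051 with limma-voom and 0.00079 with weights. Srebf1 stood at 0.030, 0.020, 0.031 and 0.13 in the same settings and 0.020 with block and weights. With weights Hsd17b7 stood at -0.14 and Ebp at -0.15, and with block and weights Hsd17b7 stood at -0.35, Ebp at -0.077 and Acly at -0.054. With 1 library left out, the ranges were -0.13 to 0.37 for Acly, -0.013 to 0.26 for Ebp, -0.044 to 0.45 for Fasn, -0.34 to 0.61 for Hsd17b7 and -0.15 to 1.05 for Idi1. They were -0.24 to 0.90 for Insig1, -0.38 to 0.30 for Sc5d, -0.18 to 0.24 for Srebf1 and -0.21 to 0.80 for Srebf2. The cause of these turns was not tested.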
